A study of Mus musculus with 15 samples.

Results

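Ventral skin from embryos carrying the K14-PTHrP transgene was set against mammary buds of wild-type (WT) embryos, to see which bud transcripts such skin carries and which still separate it from a bud. The samples were chosen by their labels, 3 arrays of K14-PTHrP skin and 3 of WT buds, 6 of the 15 arrays in the series. The embryos were CD-1 mice at embryonic day 15, and their RNA was read on Affymetrix MOE430A arrays. K14-PTHrP skin carries parathyroid hormone-related protein (PTHrP) under the keratin 14 promoter, which is active in basal keratinocytes. K14WT skin is WT ventral skin that the labels assign to the transgenic comparison, and a separate group labelled WT skin is WT ventral skin as well. WT buds are mammary buds of WT embryos, and buds labelled PTHrP-/- make up the remaining group. Each group has 3 arrays. RNA came from tissue combined over embryos of the same genotype, so an array reads a pool of embryos. The labels used here do not state the transgenic line or the time at which the transgene came on. Nor do they state whether the 3 pools of a group were independent. The p-values therefore weigh a difference only against the spread among these samples, and some of that spread may be technical.

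PTHrP, the product of Pthlh, is secreted by the epithelium of the embryonic mammary bud and acts through its receptor Pth1r on the mesenchyme just beneath. That signal turns the local mesenchyme into the dense mammary mesenchyme, which in turn directs the bud epithelium to grow into ducts and the overlying epidermis to become nipple. In mice, ventral epidermis exposed to PTHrP from the K14 transgene is known to take on features of nipple skin. A bud dissection can hold epithelium, mesenchyme and adjoining skin. Ventral skin holds epidermis, dermis and the vessels and immune cells within. In such bulk tissue, fewer cells of a type and less RNA per cell cannot be told apart.

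The values are log2 expression levels, each from a probe set, a group of short probes for a transcript. Levels of different genes are not compared, since probe sets differ in how well they bind. Probe sets brighter than the median of the array on 3 or more of the 15 arrays were retained, and these were 11690. Of these, 2181 carried a gene symbol, for 1892 genes, because names came only from the authors' 4 lists of differences from WT buds. The named genes are therefore not a sample of all genes, and in comparisons with WT buds their shares are not independent of the lists. A gene with several probe sets is represented by the brightest. Differences are given as log2 units with the standard error (SE) of a limma fit over all 15 arrays, and calls are limma's Benjamini-Hochberg adjusted p under 0.05 over all 11690 kept probe sets. A level under the array median on every array of a group makes the size of a difference inexact, and this is said where it occurs.

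The arrays of the K14 groups varied more than the others, and 5 of those 6 stood apart on the first principal component. That component was taken without the 120 kept probe sets on which WT skin lay more than 1 log2 unit beyond all other arrays. On the first principal component, which carried 35.5% of the variance, K14-PTHrP replicates 1 and 2 lay at -0.25 and -0.46, with the K14WT arrays at -0.24 to -0.41, while K14-PTHrP replicate 3 lay at 0.26, with the WT skin arrays at 0.13 to 0.22, the PTHrP-/- buds at 0.09 to 0.16 and the WT buds at 0.16 to 0.23. So on this component the 3 K14WT arrays and K14-PTHrP replicates 1 and 2 stood apart from the other 10. This split runs through every difference between K14-PTHrP skin and WT buds. The labels used here record no processing batch, and the part of one was not tested. The median SD of a probe set was 0.20 in K14-PTHrP skin, 0.18 in K14WT skin, 0.12 in WT skin, 0.11 in PTHrP-/- buds and 0.13 in WT buds. The fit takes a single spread per probe set over all 5 groups, so its SE can be too small for the K14 groups. Correlations across all kept probe sets were 0.964 to 0.985 among K14-PTHrP arrays, 0.970 to 0.983 between them and WT buds, and 0.992 to 0.994 among WT buds. By this measure WT skin lay farther off, at 0.957 to 0.96 with WT buds and 0.942 to 0.957 with K14-PTHrP skin. K14WT skin was at 0.972 to 0.978 with WT buds. Unlike the principal component, these correlations take in the 120 probe sets on which WT skin stood apart. How far those lower the WT skin values was not tested, so the correlations do not rank the skin groups by likeness to buds. The Gapdh control, read as 3′ minus 5′ signal on the log2 scale, was 0.30, 0.44 and 1.19 in K14-PTHrP skin and 1.0, 1.03 and 0.72 in WT buds. The probe set for the middle of 18S ribosomal RNA read 10.78, 7.50 and 8.32 in K14-PTHrP skin and 9.10, 8.97 and 8.62 in WT buds. The part of these RNA measures in the differences below was not tested.

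Pthlh itself was at 3.60, 3.64 and 3.39 in K14-PTHrP skin, 3.86 to 4.38 in K14WT skin, 3.36 to 3.82 in WT skin, and 4.87, 5.85 and 5.57 in WT buds. Every K14-PTHrP array lay below every WT bud array. The difference from WT buds was -1.89 ± 0.24 (SE, n = 3 each; limma, adjusted p = 0.00121), an inexact size because all 3 K14-PTHrP arrays lay under their array medians. Whether this probe set can read the transgene's transcript is unknown here, so it is no check on the label. The receptor Pth1r was at 7.89, 7.71 and 9.09 in K14-PTHrP skin and 8.24, 8.22 and 8.86 in WT buds, and these ranges overlapped. Its difference of -0.21 had a 95% interval from -0.86 to 0.44 (limma, adjusted p = 0.764).

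K14-PTHrP skin differed from WT buds at 502 of 11690 probe sets, 4.29%, of which 108 (0.924%) were higher and 394 (3.37%) lower. An unadjusted p under 0.05 was reached by 2559. The arrays of the groups did not overlap for 500 of the 502, against 22.0% of all kept probe sets. K14WT skin differed from the same WT bud arrays at 1344 probe sets (11.5%), 250 higher (2.14%) and 1094 lower (9.36%), and WT skin at 214 (1.83%), 110 higher (0.941%) and 104 lower (0.890%). Of the 214, 120 were the probe sets on which WT skin stood apart from all other arrays. Such probe sets made up 6 of the 502 and 14 of the 1344. The size of these counts hung on single arrays and on scaling. Without K14-PTHrP replicate 3 the counts were 506 higher and 1480 lower. Without replicate 1 they were 54 and 149, and without replicate 2 they were 107 and 159. Leaving out WT bud replicate 1, 2 or 3 gave 48, 51 or 65 higher and 116, 117 or 161 lower. The share of calls that were higher was 21.5%, but 42.7% after quantile normalization (155 higher, 208 lower) and 60.8% in a fit of the 6 arrays alone (31 higher, 20 lower).

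The sharing with buds was read from K14-PTHrP skin against K14WT skin, on the probe sets that the authors listed as different between WT skin and WT buds. These lists and this contrast have no array in common. Of 318 kept probe sets listed as higher in WT skin, 8 were lower and 3 higher in K14-PTHrP than in K14WT skin. Of 199 listed as lower in WT skin, 13 were higher and 2 lower. Over all kept probe sets 83 passed (0.710%), 60 higher (0.513%) and 23 lower (0.197%), and 1382 had an unadjusted p under 0.05. So 21 probe sets, of 20 genes, changed in the bud direction, that is from WT skin to WT buds as listed, and 5 in the skin direction. Direction here comes from the lists and not from where K14WT skin stood. Of the 21, 18 ended nearer to WT buds than K14WT skin was and 3 (Tac1, Nnat and Vcan) farther, and of the 5, 2 (AY036118 and a Timp2 probe set) ended nearer. The lists as wholes leaned in the skin direction, with 195 of 318 probe sets (61.3%) listed as higher in WT skin above K14WT skin and 111 of 199 (55.8%) listed as lower below it, against 48.5% above and 51.5% below over all. Arrays of the K14 groups did not overlap for 31 higher and 24 lower probe sets of the first list and for 19 and 19 of the second, where 11.3% of all did not overlap. The lists had a median difference between the K14 groups of 0.10 for genes listed as higher in WT skin and -0.03 for genes listed as lower, both in the skin direction, against -0.01 over all probe sets. Without K14-PTHrP replicate 3 the counts were 13 in the bud direction and 1 in the skin direction, without K14WT replicate 3 they were 12 and 2, and in a fit of the 6 K14 arrays alone they were 3 and 0. The number in the skin direction was 11 without K14-PTHrP replicate 2 or without K14WT replicate 1, and 1 without K14WT replicate 2.

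**Figure D1:**
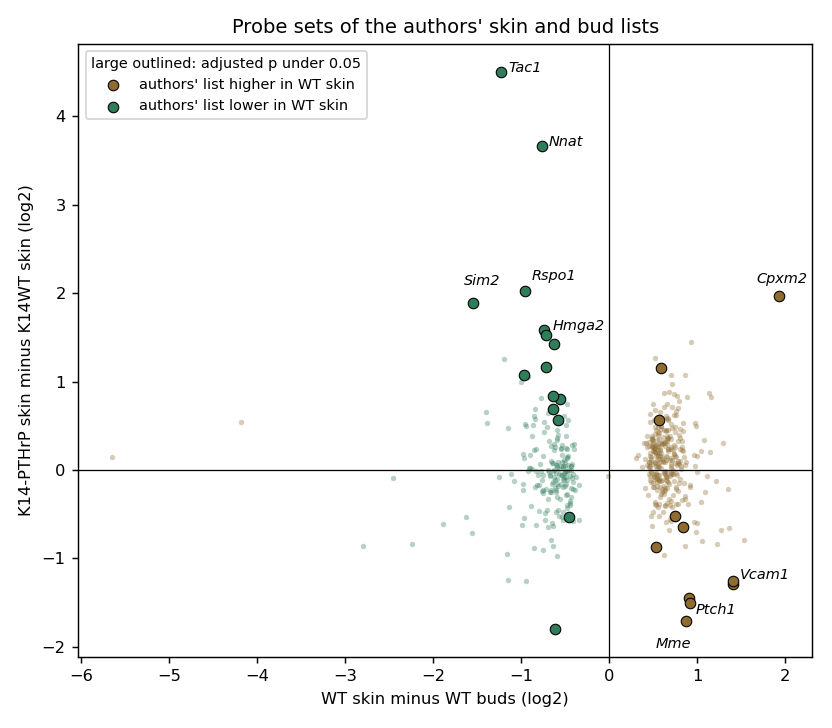
Kept probe sets on the authors' lists, with WT skin minus WT buds on the x axis and K14-PTHrP minus K14WT skin on the y axis (log2 units; the axes share no array). Large outlined points passed in the K14 comparison. Most points lie near 0 on the y axis, with Tac1 at 4.50 and Nnat at 3.66 far above and Ptch1 at -1.44 among the genes below; 2 points listed as higher in WT skin lie far to the left, against their list, because the value table reads them low in WT skin.

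For those 20 genes the difference from WT buds is a description, since it uses the K14-PTHrP arrays that selected them. Against WT buds, 4 of the 20 were called higher, 1 was called lower and 15 did not pass. The 95% interval held 0 for 12 of them. The K14WT interval against the same WT buds held 0 for 1.

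**Figure D2:**
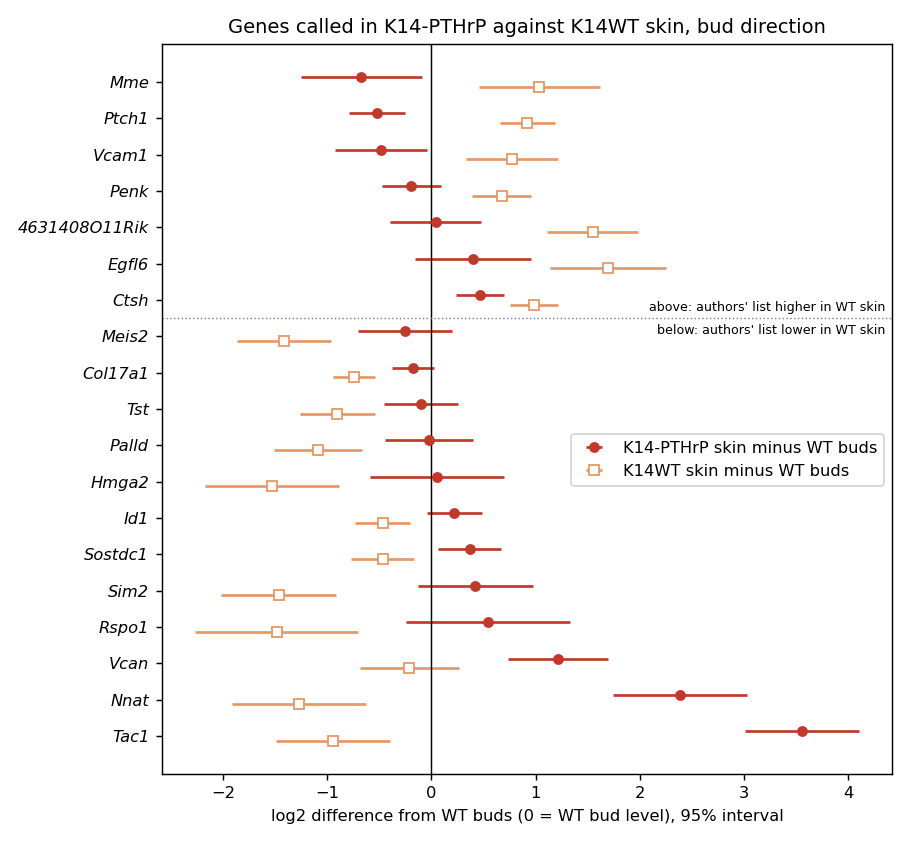
Difference from WT buds (log2, with 95% interval, n = 3 each) in K14-PTHrP skin (filled circles) and K14WT skin (open squares) for the genes named in the text that changed in the bud direction against K14WT skin. The K14-PTHrP circles cluster about the 0 line for most genes, with Vcan, Nnat and Tac1 to the right of it at 1.21, 2.39 and 3.55.

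Tac1, which encodes the precursor of the neuropeptides substance P and neurokinin A, moved the most and went past the bud. Its level was 9.12, 9.95 and 8.74 in K14-PTHrP skin, 4.63 to 4.98 in K14WT skin, 4.41 to 4.57 in WT skin, and 5.41, 6.18 and 5.55 in WT buds. All 3 K14-PTHrP arrays lay more than 2 log2 units above the highest WT bud array. It was 22.6-fold higher than in K14WT skin (4.50 ± 0.25, limma, adjusted p = 9.43e-07) and 11.8-fold higher than in WT buds (3.55 ± 0.25, limma, adjusted p = 1.19e-05). Nnat, an imprinted gene for the small membrane protein neuronatin, followed. It read 10.73, 10.25 and 10.97 in K14-PTHrP skin, 6.65 to 7.62 in K14WT skin, 7.15 to 7.88 in WT skin, and 7.85, 8.14 and 8.80 in WT buds. Here too the K14-PTHrP arrays lay above every array of the other groups, by 3.66 ± 0.30 over K14WT skin (limma, adjusted p = 4.16e-05) and 2.39 ± 0.30 over WT buds (limma, adjusted p = 0.000994). The calls of both genes, in both comparisons, held under every alternative run.

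The upstream sequences of this pair are shown because both rose most over K14WT skin, and because Pth1r is a receptor known to raise cyclic AMP, whose response element has the core TGACG. From RefSeq (GRCm38.p6), the 250 bases before the start of Tac1 are chr6:7554811-7555060 and those of Nnat chr2:157559828-157560077, each on the plus strand and written 5′ to 3′, with capitals marking TGACG or its reverse complement CGTCA.
Tac1: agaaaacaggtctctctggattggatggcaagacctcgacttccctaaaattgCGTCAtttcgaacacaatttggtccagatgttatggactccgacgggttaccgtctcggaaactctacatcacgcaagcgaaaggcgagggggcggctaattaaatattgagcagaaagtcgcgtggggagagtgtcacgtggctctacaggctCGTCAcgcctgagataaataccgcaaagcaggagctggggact
Nnat: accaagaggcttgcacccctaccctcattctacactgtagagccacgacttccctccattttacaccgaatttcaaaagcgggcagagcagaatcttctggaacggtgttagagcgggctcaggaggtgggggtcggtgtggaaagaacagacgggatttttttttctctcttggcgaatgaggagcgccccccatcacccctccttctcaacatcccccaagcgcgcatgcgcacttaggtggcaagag
The Tac1 window holds CGTCA at 2 places, which begin 197 and 43 bases before the start, and the Nnat window holds neither form. Of the 20 genes, 11 had a window in the table, and Tac1 was the 1 that held the core. The core, on either strand, lay in 17.8% of all 32851 windows, and the full palindrome TGACGTCA lay in 1.55% of all and in 0 of the 11. A match in these letters is a description and not a binding site.

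Of 4 mammary mesenchyme genes named and kept, 3 rose over K14WT skin. Vcan, the large matrix proteoglycan versican of the condensed mesenchyme, read 8.66, 9.06 and 8.18 in K14-PTHrP skin, 7.11 to 7.38 in K14WT skin, 6.37 to 7.03 in WT skin, and 7.18, 7.41 and 7.67 in WT buds. The K14-PTHrP arrays lay above all WT bud arrays, by 1.21 ± 0.22 (limma, adjusted p = 0.00988), and 1.43 ± 0.22 above K14WT skin. Rspo1, a secreted R-spondin that strengthens Wnt signalling, read 6.83, 5.25 and 7.17 in K14-PTHrP skin, 4.0 to 4.72 in K14WT skin, and 5.78, 5.95 and 5.90 in WT buds. K14-PTHrP replicate 2 lay below the WT buds and the other 2 arrays above them. Rspo1 rose by 2.03 ± 0.36 over K14WT skin (limma, adjusted p = 0.0216), while its difference from WT buds was 0.54, with an interval from -0.24 to 1.33. The metalloproteinase Mmp2, which was not on the skin and bud lists, rose by 0.78 ± 0.14 over K14WT skin (limma, adjusted p = 0.0281) and stood 0.07 from WT buds, with an interval from -0.24 to 0.38. WT skin held Mmp2 at 8.10 to 8.53, near the 8.29 to 8.71 of K14-PTHrP skin, and K14WT skin at 7.60 to 7.93. Of the 4 mesenchyme genes, 1, Vcan, was higher than in WT buds. The median difference from WT buds over the 4 was 0.31, against -0.20 over all named genes and -0.04 over all kept probe sets. Among named genes 1.22% rose and 0.687% fell against K14WT skin. The call of Rspo1 against K14WT skin was lost under 7 of 17 alternatives, and that of Mmp2 under 6.

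Sim2, Sostdc1 and Id1 rose over K14WT skin and did not pass against WT buds. Sim2, a basic helix-loop-helix transcription factor, read 4.30, 4.49 and 3.95 in K14-PTHrP skin, 2.32 to 2.38 in K14WT skin, 2.22 to 2.32 in WT skin, and 3.14, 3.76 and 4.57 in WT buds. The K14-PTHrP values fell inside the WT bud range, and no array of either WT skin group came near. WT bud replicates 1 and 2 lay under all array medians (3.86 to 4.05), so that range is inexact at its lower end. Sim2 passed the filter only through K14-PTHrP arrays and WT bud replicate 3. Sim2 rose by 1.89 ± 0.25 over K14WT skin (limma, adjusted p = 0.0026), an inexact size since K14WT skin lay under its array medians, and differed from WT buds by 0.42, with an interval from -0.13 to 0.97. Sostdc1, a secreted antagonist of Wnt and BMP signals, was at 9.37, 9.38 and 8.81 in K14-PTHrP skin, 8.28 to 8.48 in K14WT skin, and 8.98, 8.75 and 8.73 in WT buds. Sostdc1 rose by 0.83 ± 0.14 over K14WT skin, and by 1.53 ± 0.16 at a dimmer probe set. It stood above WT buds by 0.37, with an interval from 0.06 to 0.67, and by 0.44 at the dimmer probe set, from 0.08 to 0.79. At that probe set every K14-PTHrP array lay above the WT buds, though neither difference passed after adjustment. The BMP target Id1 was at 9.59, 9.76 and 9.55 in K14-PTHrP skin, 8.73 to 9.07 in K14WT skin, and 9.38, 9.40 and 9.46 in WT buds. Id1 rose by 0.69 ± 0.12 over K14WT skin (limma, adjusted p = 0.0216), and its K14-PTHrP arrays all lay slightly above the WT buds, at 0.22 with an interval from -0.05 to 0.49.

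The remaining listed genes that rose over K14WT skin had mixed roles. Hmga2, a chromatin protein of growing embryonic tissue, rose by 1.58 ± 0.30, the homeobox factor Meis2 by 1.16 ± 0.21 and the actin-associated protein Palld by 1.07 ± 0.20, all over K14WT skin. Their differences from WT buds were 0.05, -0.26 and -0.02, with intervals from -0.59 to 0.69, from -0.71 to 0.19 and from -0.44 to 0.40. These intervals are wide, so they do not show equal levels, and 2 dimmer Hmga2 probe sets, at 1.42 and 1.57 over K14WT skin, did not pass. Col17a1, a collagen of the hemidesmosome in basal keratinocytes, was at 7.93, 8.10 and 8.0 in K14-PTHrP skin, 7.42 to 7.46 in K14WT skin, and 8.30, 8.25 and 8.01 in WT buds, a rise of 0.57 ± 0.09 over K14WT skin. Tst, a mitochondrial sulfurtransferase, rose by 0.80 ± 0.17. The calls of Hmga2, Meis2, Palld and Tst against K14WT skin were each lost under 6 to 8 of 17 alternatives.

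Genes listed as higher in WT skin that fell included the hedgehog receptor Ptch1, which is also a transcriptional target of hedgehog signalling. Ptch1 read 7.11, 7.51 and 7.32 in K14-PTHrP skin, 8.55 to 8.92 in K14WT skin, 8.67 to 8.81 in WT skin, and 7.96, 7.67 and 7.87 in WT buds. The K14-PTHrP arrays lay under every WT bud array, and both WT skin groups above. It fell by 1.44 on the log2 scale against K14WT skin (SE 0.12, limma, adjusted p = 4.16e-05) and stood at -0.52 ± 0.12 from WT buds (limma, adjusted p = 0.034), a call that 8 of 18 alternatives lost. The opioid precursor gene Penk was at 8.19, 8.31 and 8.61 in K14-PTHrP skin, 9.08 to 9.46 in K14WT skin, and 8.44, 8.51 and 8.74 in WT buds, and the K14-PTHrP and bud ranges overlapped. The peptidase Mme, known to degrade substance P and enkephalins, was at 4.81, 4.41 and 4.87 in K14-PTHrP skin, 5.88 to 6.74 in K14WT skin, and 5.37, 5.42 and 5.32 in WT buds. Mme fell by 1.71 against K14WT skin (SE 0.27, limma, adjusted p = 0.00812), and its difference from WT buds, -0.67 with an interval from -1.25 to -0.09, did not pass (limma, adjusted p = 0.167).

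The other genes that fell had mixed roles. The adhesion molecule Vcam1 read 7.19, 6.86 and 7.30 in K14-PTHrP skin, 7.89 to 8.84 in K14WT skin, 8.91 to 9.11 in WT skin, and 7.76, 7.72 and 7.32 in WT buds. It fell by 1.25 against K14WT skin (SE 0.20, limma, adjusted p = 0.0112), and its K14-PTHrP arrays lay just under the WT buds. A dimmer Vcam1 probe set read -0.64 (limma, adjusted p = 0.41). Egfl6, a secreted matrix protein with EGF repeats, fell by 1.29 and the transcript 4631408O11Rik by 1.51, both against K14WT skin. They stood 0.40 and 0.04 from WT buds and did not pass there. The lysosomal protease Ctsh fell by 0.51 but stayed above WT buds, by 0.47 ± 0.11 (limma, adjusted p = 0.0287), a call that 8 of 18 alternatives lost. Against K14WT skin the calls of Egfl6 and Ctsh were lost under 7 and 9 of 17 alternatives.

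**Figure D3:**
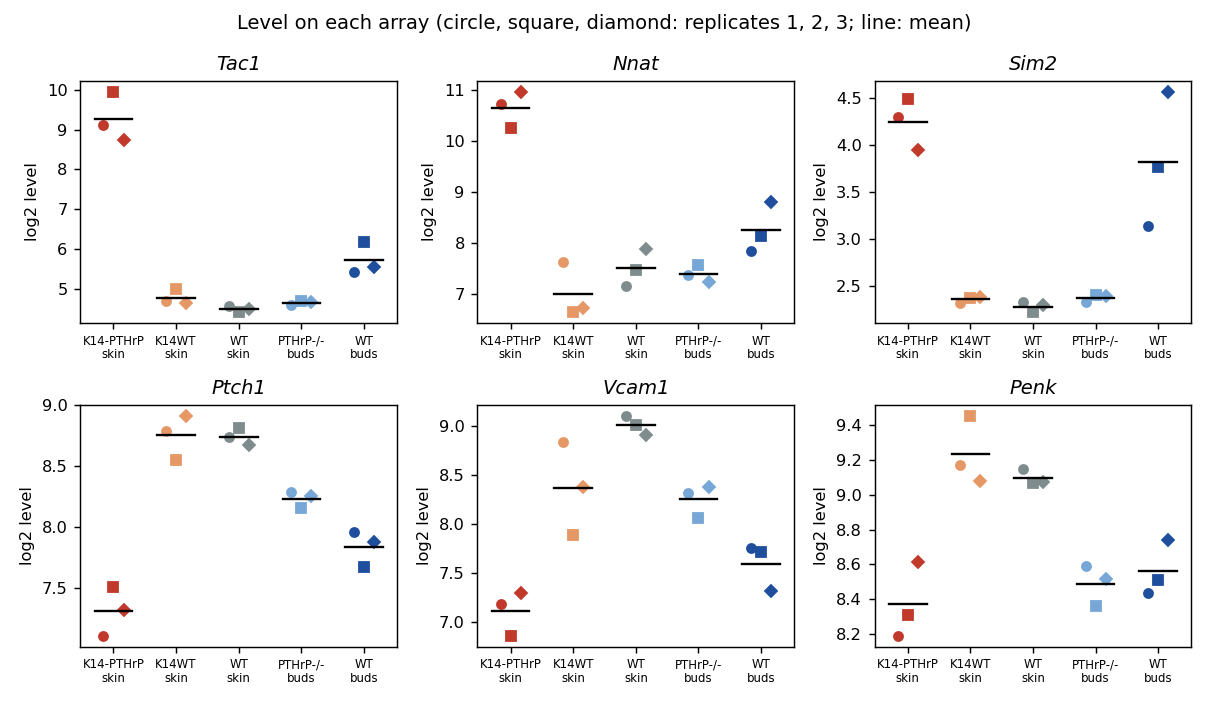
Log2 level on each array (y axis) for 6 genes in the 5 groups, with the mean of 3 arrays as a line. Tac1 and Nnat in K14-PTHrP skin lie above every other array, Sim2 lies within the WT bud range, Ptch1 and Vcam1 lie under the WT buds, and Penk overlaps the WT buds.

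The 5 probe sets that changed in the skin direction belonged to Cpxm2, Lpl, Pigf, AY036118 and Timp2. Cpxm2, a carboxypeptidase-like secreted protein, read 7.13, 7.25 and 7.37 in K14-PTHrP skin, 4.75 to 5.69 in K14WT skin, 6.89 to 7.41 in WT skin, and 5.01, 5.16 and 5.23 in WT buds. K14-PTHrP skin thus lay at the WT skin level, and K14WT skin near WT buds, and the K14 groups differed by 1.97 ± 0.22 (limma, adjusted p = 0.000422). Lpl, the lipoprotein lipase of fat-storing cells, was at 8.08, 7.98 and 8.37 in K14-PTHrP skin, 7.43 to 7.66 in K14WT skin, and 6.96, 6.93 and 7.03 in WT buds. It was 1.17 ± 0.11 above WT buds (limma, adjusted p = 0.000148). Pigf, an enzyme of glycolipid anchor synthesis, was at -0.67 ± 0.10 from WT buds (limma, adjusted p = 0.00414) and -0.53 ± 0.10 from K14WT skin. The transcript AY036118 was at -1.80 ± 0.37 from K14WT skin, and its levels were between 10.07 and 10.86 in K14-PTHrP skin, between 11.21 and 12.83 in K14WT skin, between 9.94 and 10.15 in WT skin, and 10.83, 10.66 and 10.43 in WT buds. K14-PTHrP skin overlapped WT buds, from which it stood at -0.26, with an interval from -1.06 to 0.54, while K14WT skin stood at 1.54. A dimmer probe set for the metalloproteinase inhibitor Timp2 was at 1.15 ± 0.24 from K14WT skin and at 0.16 from WT buds, with an interval from -0.35 to 0.68, while K14WT skin stood at -0.99. Against K14WT skin the calls of Lpl, Pigf and AY036118 were lost under 8, 9 and 10 of 17 alternatives.

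Fxyd6 was not on the skin and bud lists but was called higher in both comparisons. Fxyd6, a regulator of the sodium pump, which the authors listed as lower in buds labelled PTHrP-/-, read 5.65, 5.48 and 5.91 in K14-PTHrP skin, 3.71 to 3.84 in K14WT skin, and 4.12, 4.67 and 4.67 in WT buds. The K14-PTHrP arrays lay above all others, 1.89 ± 0.16 over K14WT skin (limma, adjusted p = 4.16e-05; inexact, as K14WT skin lay under its array medians) and 1.20 ± 0.16 over WT buds (limma, adjusted p = 0.00125). The call against WT buds failed only in the fit of the 6 arrays alone (adjusted p = 0.0698).

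What still separated K14-PTHrP skin from WT buds included the simple epithelial keratins and other genes of the bud epithelium. Krt18, a keratin of simple and ductal epithelia, read 6.97, 6.64 and 7.22 in K14-PTHrP skin, 6.99 to 7.34 in K14WT skin, and 8.63, 8.68 and 8.82 in WT buds. Its partner Krt8 read 7.32, 7.44 and 7.37 in K14-PTHrP skin, 7.75 to 7.89 in K14WT skin, and 8.86, 8.87 and 8.87 in WT buds. For both keratins every K14-PTHrP array lay more than 1 log2 unit under every WT bud array, at the level of K14WT skin or below it. WT skin, at 7.34 to 8.06 for Krt18 and 7.80 to 8.56 for Krt8, lay between the K14-PTHrP and WT bud arrays. Krt18 was 3.40-fold lower than in WT buds (-1.77 ± 0.18, limma, adjusted p = 0.000188) and Krt8 2.82-fold lower (-1.49 ± 0.16, limma, adjusted p = 0.000283), and all 3 Krt8 probe sets passed. Against K14WT skin their differences were -0.23 (adjusted p = 0.596) and -0.46 (adjusted p = 0.293) by limma, and did not pass.

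Of 16 bud epithelium genes named and kept, 8 were lower than in WT buds and 0 higher, with a median of -0.92. The background was 9.99% lower and 2.27% higher among the 1892 named genes. Most of the 16 were listed as lower in WT skin than in these same WT buds, and 28.6% of that list's probe sets were lower here. The count is therefore partly set by how the genes were named. Besides Pthlh, Krt8 and Krt18, the lower ones were the epithelial adhesion molecule Epcam (-1.17 ± 0.19), the keratin Krt19 (-1.01 ± 0.23), the transcription factors Gata3 (-1.0 ± 0.20) and Myb (-0.84 ± 0.15), and the tight junction protein Cldn3 (-0.84 ± 0.21, inexact since K14-PTHrP skin lay under its array medians). Epcam was at 8.24, 7.74 and 8.37 in K14-PTHrP skin, 7.86 to 8.56 in K14WT skin, 8.48 to 8.88 in WT skin, and 9.41, 9.30 and 9.17 in WT buds. None of these 8 passed against K14WT skin, where the list's 2 calls were the rises of Sim2 and Sostdc1. Against WT buds the calls of Krt19 and Cldn3 were lost under 8 and 11 of their alternatives, and that of Gata3 under 6 of 18, in 1 of which its sign changed. The epithelial cadherin Cdh1 stood at -0.04 and Fxyd3 at -0.01 from WT buds (limma, adjusted p = 0.903 and 0.987). Summed over the list, K14-PTHrP skin ranged between 12 and 12.25, K14WT skin between 11.86 and 12.30 and WT buds between 12.71 and 12.78. WT skin, at 12.02 to 12.41, and PTHrP-/- buds, at 12.23 to 12.58, lay under the WT buds as well. Such a sum is weighted towards bright probe sets, that of Krt19 most.

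Keratins of stratified epithelium gave a mixed picture. The internal epithelial keratin Krt4 averaged 10.14 ± 0.13 in K14-PTHrP skin and 11.11 ± 0.07 in WT buds (SD, n = 3 each), without overlap (-0.97 ± 0.15, limma, adjusted p = 0.00414). Krt15 of basal cells was also lower (-0.71 ± 0.14, limma, adjusted p = 0.0161), a call lost under 6 of 18 alternatives, and it stood at -0.15 with the difference between the WT skin groups subtracted. The other 4 of 6 nipple and ventral skin keratinocyte genes, Krt2, Krt6a, Krt13 and Sprr1a, lay 0.04 to 0.40 above WT buds and did not pass. The median of the 6 was 0.11. None of the 6 passed against K14WT skin. The epidermal genes Krt1 and Lor, which define differentiated epidermis, were bright in both tissues, Krt1 at 12.47 to 12.77 in K14-PTHrP skin and 12.84 to 12.92 in WT buds, and Lor at 12 to 13.26 in K14-PTHrP skin and 13.30 to 13.39 in WT buds. None of 4 epidermal differentiation genes passed, with a median of -0.26.

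Some genes of the extracellular matrix, 6 of 21, were higher in K14-PTHrP skin than in WT buds, where 2.27% of the named genes were higher and 9.99% lower. Most of the 21 were listed as higher in WT skin than in these same WT buds. Of the probe sets on that list 13.5% were higher here, so the count is partly set by how the genes were named. Aspn, a small leucine-rich proteoglycan, read 9.23, 9.50 and 9.27 in K14-PTHrP skin, 9.22 to 9.51 in K14WT skin, and 7.86, 8.12 and 8.02 in WT buds. Eln, the elastin gene, read 7.88, 7.51 and 7.91 in K14-PTHrP skin, 7.31 to 7.65 in K14WT skin, and 6.78, 6.45 and 7.03 in WT buds. All K14-PTHrP arrays lay above the WT buds for both, by 1.33 ± 0.17 for Aspn (limma, adjusted p = 0.00121) and 1.01 ± 0.17 for Eln (limma, adjusted p = 0.00663). None of the 21 was lower and their median was 0.47, and the others that were higher were Vcan, the basement membrane genes Col4a1 (0.80 ± 0.16) and Nid1 (1.04 ± 0.24), and the elastic fibre gene Fbln5 (0.90 ± 0.24). Of these 6, Vcan alone also passed against K14WT skin, and the median of the 21 in that comparison was -0.03. The call of Fbln5 (adjusted p = 0.0497) was lost under 13 of 18 alternatives. Among 10 matrix proteases and inhibitors, read against the same 2.27%, the collagen processing genes Pcolce (0.69 ± 0.14) and Serpinh1 (0.60 ± 0.14) and the membrane metalloproteinase Mmp14 (0.82 ± 0.22) were higher and 0 were lower, with a median of 0.18. Pcolce, Serpinh1 and Mmp14 were also listed as higher in WT skin, where the share was 13.5%. The calls of Nid1, Serpinh1 and Mmp14 were lost under 7, 9 and 10 of 18 alternatives.

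**Figure D4:**
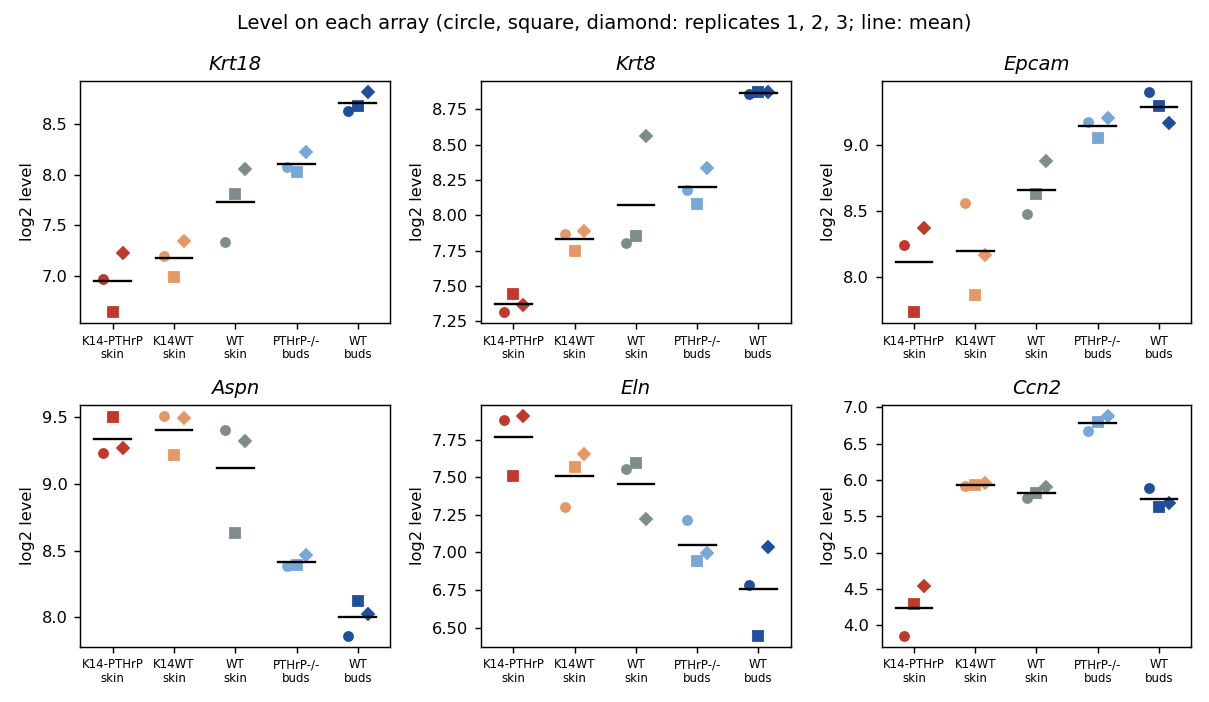
Log2 level on each array (y axis) for 6 genes in the 5 groups, with the mean of 3 arrays as a line. Krt18, Krt8 and Epcam in K14-PTHrP skin lie with or below K14WT skin and under the WT buds, Aspn and Eln lie with the skin groups and above the WT buds, and Ccn2 in K14-PTHrP skin, at 3.86 to 4.55, lies under every other array.

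Ccn2, a secreted growth factor of the CCN family, separated K14-PTHrP skin from buds and from skin alike. It read 3.86, 4.30 and 4.55 in K14-PTHrP skin, 5.92 to 5.95 in K14WT skin, 5.75 to 5.91 in WT skin, and 5.88, 5.64 and 5.69 in WT buds. The highest K14-PTHrP array lay more than 1 log2 unit under the lowest array of any other group. The difference was -1.50 ± 0.14 from WT buds (limma, adjusted p = 0.000116), which held under every alternative run, and -1.70 ± 0.14 from K14WT skin (limma, adjusted p = 4.16e-05). It was the 1 call among 7 CCN and immediate early genes, whose median was -0.19. Ccn3 stood at 0.84 ± 0.24 (limma, adjusted p = 0.0682).

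After Tac1, the largest rise over WT buds among named genes was that of Clca3a1. Clca3a1, of the family of calcium-activated chloride channel regulators, read 7.40, 7.13 and 6.71 in K14-PTHrP skin, 5.08 to 6.22 in K14WT skin, and 4.71, 4.16 and 4.42 in WT buds. It lay above all WT bud arrays by 2.65 ± 0.31 (limma, adjusted p = 0.000542), a call that held under every alternative run, while 1.45 over K14WT skin did not pass (limma, adjusted p = 0.0545). The matrix protein Tgfbi was at 1.77 ± 0.28 over WT buds, the scaffold protein Homer2 at 2.0 ± 0.31, the microtubule end protein Mapre2 at 1.88 ± 0.44 and the matricellular protein Sparcl1 at 1.57 ± 0.35. The Tgfbi rise over K14WT skin passed at a dimmer probe set (1.07, limma, adjusted p = 0.00724) and not at the brighter one (1.07, limma, adjusted p = 0.157). Sparcl1 stood 0.01 from K14WT skin. Bcas2, a splicing factor read by a probe set that can bind several transcripts, was at 1.35 ± 0.33. The calls of Mapre2, Sparcl1 and Bcas2 against WT buds were lost under 7, 8 and 8 of their alternatives.

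Some vessel and macrophage genes were higher than in WT buds too. The endothelial junction gene Esam was at 7.82, 7.60 and 7.81 in K14-PTHrP skin, 7.07 to 7.58 in K14WT skin, and 6.72, 6.59 and 6.71 in WT buds. The fenestral diaphragm gene Plvap was at 7.57, 7.62 and 7.87 in K14-PTHrP skin, 6.88 to 7.09 in K14WT skin, and 6.47, 6.66 and 6.38 in WT buds. Both lay above all WT bud arrays, by 1.07 ± 0.16 (limma, adjusted p = 0.00295) and 1.18 ± 0.19 (limma, adjusted p = 0.00533), and both calls held under every alternative run. Cd93, a receptor of endothelial and myeloid cells, was at 1.35 ± 0.21, and the lymphocyte GTPase Gimap4 at 1.35 ± 0.23. The shares to read the next counts against are 2.27% higher and 9.99% lower among named genes. Esam, Plvap, C1qa and C1qb were listed as higher in WT skin than in these same WT buds, and 13.5% of that list's probe sets were higher. Of 6 endothelial genes 2 were higher and 1, Ramp2, was lower, with a median of 0.71. Their summed level went the other way, at 9.96 to 10.53 in K14-PTHrP skin and 10.8 to 10.93 in WT buds. This sum is weighted towards bright probe sets, in WT buds that of Ramp2 most, so it does not speak for the other endothelial genes. Of 6 leukocyte genes the complement genes C1qa (0.82 ± 0.17) and C1qb (0.78 ± 0.17) were higher and 0 lower, with a median of 0.51, and the summed level was 10.15 to 10.56 in K14-PTHrP skin and 9.71 to 9.99 in WT buds. Of 6 dermal fibroblast genes the surface protein Thy1 was higher (1.01 ± 0.20, limma, adjusted p = 0.0164), and also against K14WT skin (0.98, limma, adjusted p = 0.045), with a median of 0.29 over the list. The calls of Thy1 were lost under 3 of 18 alternatives against WT buds and 8 of 17 against K14WT skin, and that of C1qb against WT buds under 7 of 17.

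Part of the lower calls sat on transcripts that were low in K14WT skin as well, when set against WT skin. Of the 394 lower calls, 101 (25.6%) were also lower in K14WT skin than in WT skin, against 5.98% of all kept probe sets, and these are 14.4% of the 699 such probe sets. The median difference between those WT skin groups was -0.32 over the 394 and -0.05 over all, and 87.8% of the 394 were negative. Of the 108 higher calls, 2 were lower and 5 higher in K14WT than in WT skin, where 1.39% of all were higher. The difference between the WT skin groups shares no array with K14-PTHrP skin or WT buds, but the SE behind its calls is from all 15 arrays. Set against the WT bud mean, the median over the 394 was -0.70, -0.78 and -0.49 in K14-PTHrP replicates 1, 2 and 3. Those arrays helped to select the 394, and these medians do not measure the difference between the WT skin groups. When the difference between K14WT and WT skin was subtracted, an alternative chosen after seeing the data, 35 probe sets were higher and 15 lower than in WT buds. The subtracted contrast also takes in the spread of both WT skin groups, so its SE is larger. A call lost under it need not mean that the difference shrank.

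**Figure D5:**
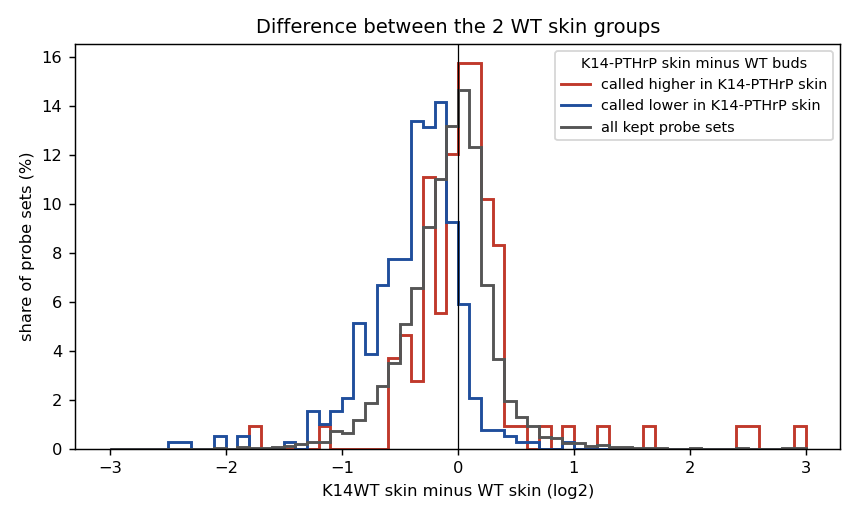
Share of probe sets (y axis, %) by K14WT minus WT skin (x axis, log2, bins of 0.1, values beyond 3 in the end bins), for probe sets called higher or lower in K14-PTHrP skin than in WT buds and for all kept ones, without those on which WT skin stands apart. The curve of the lower calls is shifted to the left of the curve for all probe sets, with a median of -0.32.

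Several of the largest falls were in transcripts that were also low in K14WT skin. Tmem14c, a mitochondrial protein of heme synthesis, was at 5.67, 3.75 and 5.22 in K14-PTHrP skin, 4.69 to 5.31 in K14WT skin, 6.45 to 7.90 in WT skin, and 7.73, 7.86 and 6.98 in WT buds. Both K14 groups lay under both other groups. Tmem14c stood at -2.64 ± 0.45 from WT buds (limma, adjusted p = 0.00711), but at -0.29 with the difference between the WT skin groups subtracted. Under the same subtraction Ramp2, an accessory protein of the adrenomedullin receptor, stood at -0.25 in place of -2.28, the kinase gene Taok1 at -0.03 in place of -1.86, the cohesin gene Smc1a at -0.43 in place of -1.52 and the adhesion molecule Nectin4 at -0.29 in place of -1.56. A dimmer Ramp2 probe set stood at 0.42 from WT buds, against the other 3 at -2.28 to -2.32. Gata3 stood at 0.10 after subtraction, Epcam lost its call at -0.71 (limma, adjusted p = 0.343) and Krt18 at -1.21 (limma, adjusted p = 0.0663), while Krt8 at -1.26 (limma, adjusted p = 0.0277) and Ccn2 kept theirs. The long RNA Gas5 (-1.84 ± 0.41), the transcription factor Tfap2b (-1.63 ± 0.37) and the carboxypeptidase Cpd (-1.50 ± 0.33) were lower by the 15-array fit, and each lost its call under 6 to 8 of 18 alternatives. For Gas5 the other 2 probe sets stood at -0.17 and -0.19.

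Signalling lists beyond those genes held few calls. Of 7 Wnt genes, Wnt4 was lower than in WT buds (-0.75 ± 0.19, limma, adjusted p = 0.0405, lost under 10 of 18 alternatives) and 0 were higher, with a median of 0.24. None of 6 BMP genes passed, with a median of 0.46, and Id2 was nearest at 1.20 ± 0.32 (limma, adjusted p = 0.0548). The hedgehog list had Ptch1 as its 1 named member. None of 8 growth factor and retinoid genes passed, with a median of 0.10. Of 5 adipocyte genes Lpl was higher and the transcription factor Cebpa lower (-0.89 ± 0.19, limma, adjusted p = 0.0235).

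Lists of other tissues held 0 calls against WT buds among 15 skeletal muscle, 8 cell cycle, 6 smooth muscle, 4 erythroid, 2 melanocyte, 2 hair placode and 1 cartilage gene, and no nerve gene was named and kept. The 15 muscle genes lay 0.04 to 1.06 above WT buds, with a median of 0.26, and their summed level was 13.65 to 14.43 in K14-PTHrP skin and 13.77 to 13.87 in WT buds. The largest of the muscle values, Tpm2 at 1.06 ± 0.28, fell short of the threshold (limma, adjusted p = 0.052). These lists were chosen with earlier results of the same arrays known.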

How the data were processed

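RNA from 15 pooled tissue samples was hybridized to 15 arrays, 3 in each of 5 groups taken from the labels. GC-RMA was the normalization that the authors used, per the file headers. MAS5 and affy appear beside it in the submitters' processing notes, with no version given. The deposited value table holds log2 levels for 22690 probe sets, 64 of them controls, which were left out. The authors' deposited lists give group means as an intensity on a linear scale, a signed fold score and gene names, which were used to name probe sets and to define the skin and bud lists. No source used here names the genome build behind the probe annotation. Of 2402 annotated probe sets, 2371 had a symbol, and 2315 were matched to a RefSeq table (GRCm38.p6), which updated 751.

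Array medians lay between 3.86 and 4.05, so no further normalization was applied. A model with 5 group means was fitted by limma 3.58.1 (R 4.3.3) to 15 arrays (10 residual degrees of freedom), with eBayes without a trend and two-sided tests, and the fit was tested on simulated data. The number of arrays limits the precision. Tables and figures were made in Python 3.11.15 (pandas 2.3.3, matplotlib 3.10.9). WT skin lay more than 1 log2 unit beyond all other arrays on 120 kept probe sets.

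The comparison, gene lists and named genes were chosen with earlier results of these data known. The rule named up to 12 higher and 12 lower genes with the largest difference among calls without overlap, up to 12 listed genes changing in the bud direction and 6 in the skin direction against K14WT skin, from every list the 4 members at most with the lowest adjusted p, and always Pth1r and Pthlh. Fxyd6, Egfl6, Palld, Hmga2, Meis2, Ctsh, Tst, Gata3, Myb, Krt19, Cldn3, Cdh1, Fxyd3, Timp2, Krt6a, Krt13, Nid1 and Fbln5 were named after their values were seen. Alternatives covered filtering, scaling, the arrays fitted, the variance model, array weights, probe sets ending in x_at, a replicate block and leaving out each array. Values of some single genes are not reported here.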

Additional observations from a re-analysis of the deposited data

How the results depend on the processing

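The 108 higher and 394 lower calls of K14-PTHrP skin against WT buds, and the 21 in the bud direction and 5 in the skin direction against K14WT skin, moved with the choices made. Lower calls numbered 252 without the filter, 208 after quantile normalization and 240 with WT skin arrays left out. With the 2 groups alone they were 31 higher and 20 lower, with array weights 794 and 1633, and with the WT skin difference subtracted (chosen after seeing the data) 35 and 15. Leaving out 1 array gave 48 to 506 higher and 116 to 1480 lower, the highest without K14-PTHrP replicate 3. Calls in the bud direction were 3 in the 2 K14 groups alone and 55 with array weights, and 12 to 24 with 1 array left out. Calls in the skin direction were 2 without the filter and with WT skin arrays left out, 3 after quantile normalization, 0 in the 2 groups alone, 49 with array weights, and 1 to 11 with 1 array left out. The replicate block gave 115 higher and 314 lower, and 3 in the skin direction. Same-numbered deviations correlated at -0.11 to -0.24 between K14-PTHrP skin and WT buds and at -0.14 to 0.31 between the K14 groups, so the numbers were not taken as a pairing. Of 51 named calls against WT buds, 10 held under every alternative run, and 4 of 28 against K14WT skin. With 1 array left out, differences from WT buds that changed sign were Palld at -0.18 to 0.19, Hmga2 at -0.20 to 0.46, 4631408O11Rik at -0.10 to 0.18, Tst at -0.30 to 0.13, Pth1r at -0.64 to 0.05 and Mmp2 at -0.03 to 0.18. Palld stood at 0.07 after quantile normalization and AY036118 at 0.05 with array weights. After subtraction the signs changed for Pth1r (1.09), 4631408O11Rik (-0.59), Meis2 (0.45), Tst (0.25), Vcam1 (0.16), Palld (0.10) and Gata3 (0.10). The causes were not tested.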
